A study of Homo sapiens with 4 samples.

Results

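Genes that build the ribosome, and the subunits and factors of RNA polymerase I (Pol I), were followed in total RNA and in ribosome-protected fragments (RPF) of SW480 cells. SW480 is an established line from a human colorectal tumour. The cells were wild type or labelled IMP1-/-, that is, lacking the RNA-binding protein encoded by IGF2BP1. Members were chosen by symbol: every symbol that opens with UTP, RRP or NOP and a digit or with POLR1A to POLR1E, together with 18 genes named singly, from FBL and NPM1 to UBTF and RRN3. A further gene that fits the pattern is not analysed here. This gave 45 genes of 19192 in the count tables, and the rule uses no measured value. There were 4 libraries, 1 for each genotype and library kind, each from 3 pooled culture plates, and both genotypes carry the background of the same cancer line. Whether the IMP1-/- cells are 1 clone is not given in the sources used here.

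Ribosome assembly starts in the nucleolus, where Pol I transcribes the long precursor of ribosomal RNA. Small nucleolar ribonucleoproteins (snoRNPs) then guide its chemical modification, box C/D particles by methylation and box H/ACA particles by pseudouridylation. The small-subunit processome, which holds the UTP proteins and the U3 snoRNP, cleaves and folds the part that becomes the 40S subunit. A separate chain of factors, with the PES1, BOP1 and WDR12 complex among them, matures the 60S subunit. The pathway is tied to growth rate and is commonly raised in colorectal cancer.

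Libraries held 3778316 to 5551479 reads, and a count of 0 would allow 0.540 to 0.794 CPM (read counts set to a common library total) at a floor of 3 reads. Every member had at least 40 reads in every library. Since each group is 1 library, no test or p-value could be made. Genotype cannot be told apart from culture, and fewer cells of a type and less RNA per cell cannot be told apart in bulk samples. IGF2BP1, the labelled target, had 598 RNA reads in wild type against 571 in the library labelled IMP1-/-, a change of 0.08 (−0.08 to 0.25), and 285 against 149 footprints. Gene counts do not show which exons these reads cover, so the second genotype is written as knockout-labelled. A label field of the wild-type RNA library names SW840 in place of SW480, and that library enters every RNA and TE value below but no RPF change. The epithelial markers KRT8, KRT18 and EPCAM had 1081 to 52179 reads in each library. Summed markers of mesenchymal cells, leukocytes and endothelium each lay at or below 12.4 CPM, and PTPRC, CD3E and DCN had 0 reads. The mesenchymal sum rests on 5 genes, collagens, DCN and PDGFRB, because VIM and ACTA2 were not among the counted symbols. Neuronal markers (TUBB3, SYP, SNAP25) summed to 32.4 to 112 CPM. KRT20 was at 0 throughout, and VIL1, an intestinal brush border gene, had 160 RNA reads and 335 footprints in wild type but 2 and 0 in the knockout-labelled cells. Other epithelial genes were higher there: CDH1 had 83 and 286 RNA reads and 88 and 275 footprints, and CLDN7 had 647 and 919 RNA reads and 484 and 1932 footprints. CDX2 had 268 and 103 RNA reads and 108 and 72 footprints. The part of such differences between the cultures in the results below was not tested. Pairs of values below give wild type first and knockout-labelled second.

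A change is the log2 ratio of knockout-labelled to wild type after TMM scaling (trimmed mean of M values), given with a 95% interval for counting error. The change in translational efficiency (TE) is the RPF change minus the RNA change, so it shares its reads with both. A gene is called higher or lower where the ratio is at least 1.5-fold and the interval leaves out no change. All 45 members passed the minimum of 50 reads over both libraries of a kind.

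Most ribosome biogenesis genes passed no call: 29 of 45 were called in none of RNA, RPF and TE. This joint count was not made over all genes. Taken singly, 7178 of 10875 genes were called neither way in RNA, 5962 of 9794 in RPF and 6753 of 9598 in TE. The members called in RNA were mostly lower in the knockout-labelled cells, with UTP20, UTP14A, NPM1, TCOF1 and NCL the lowest. In total RNA 7 of 45 members were called lower (15.6%) and 2 higher (4.44%), and 36 were neither. Among all 10875 genes measured, 17.8% were called lower and 16.2% higher. The share called lower was thus close to the background, while the share called higher was below it. The median RNA change of the members was −0.21 (range −1.66 to 0.77), beside −0.01 over all genes, and 31 of 45 lay below 0, or 68.9% against 50.7%. In footprints 9 members were called lower (background 20.1%) and 2 higher (4.44%, background 19.0%), with a median of −0.22 beside a median over all genes that rounds to 0 (−0.0007). Of the members 33 lay below 0 in RPF (73.3% against 50.3%). At 2-fold, 2 members were lower in RNA (background 8.35%) and 3 in RPF (background 9.87%), and 0 were higher in either (background 6.39% and 9.00%). NOP9, UTP20, POLR1A, TCOF1 and NCL were the 5 members lower in both (background 9.53%), and 25 lay below 0 in both (background 34.8%).

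**Figure D1:**
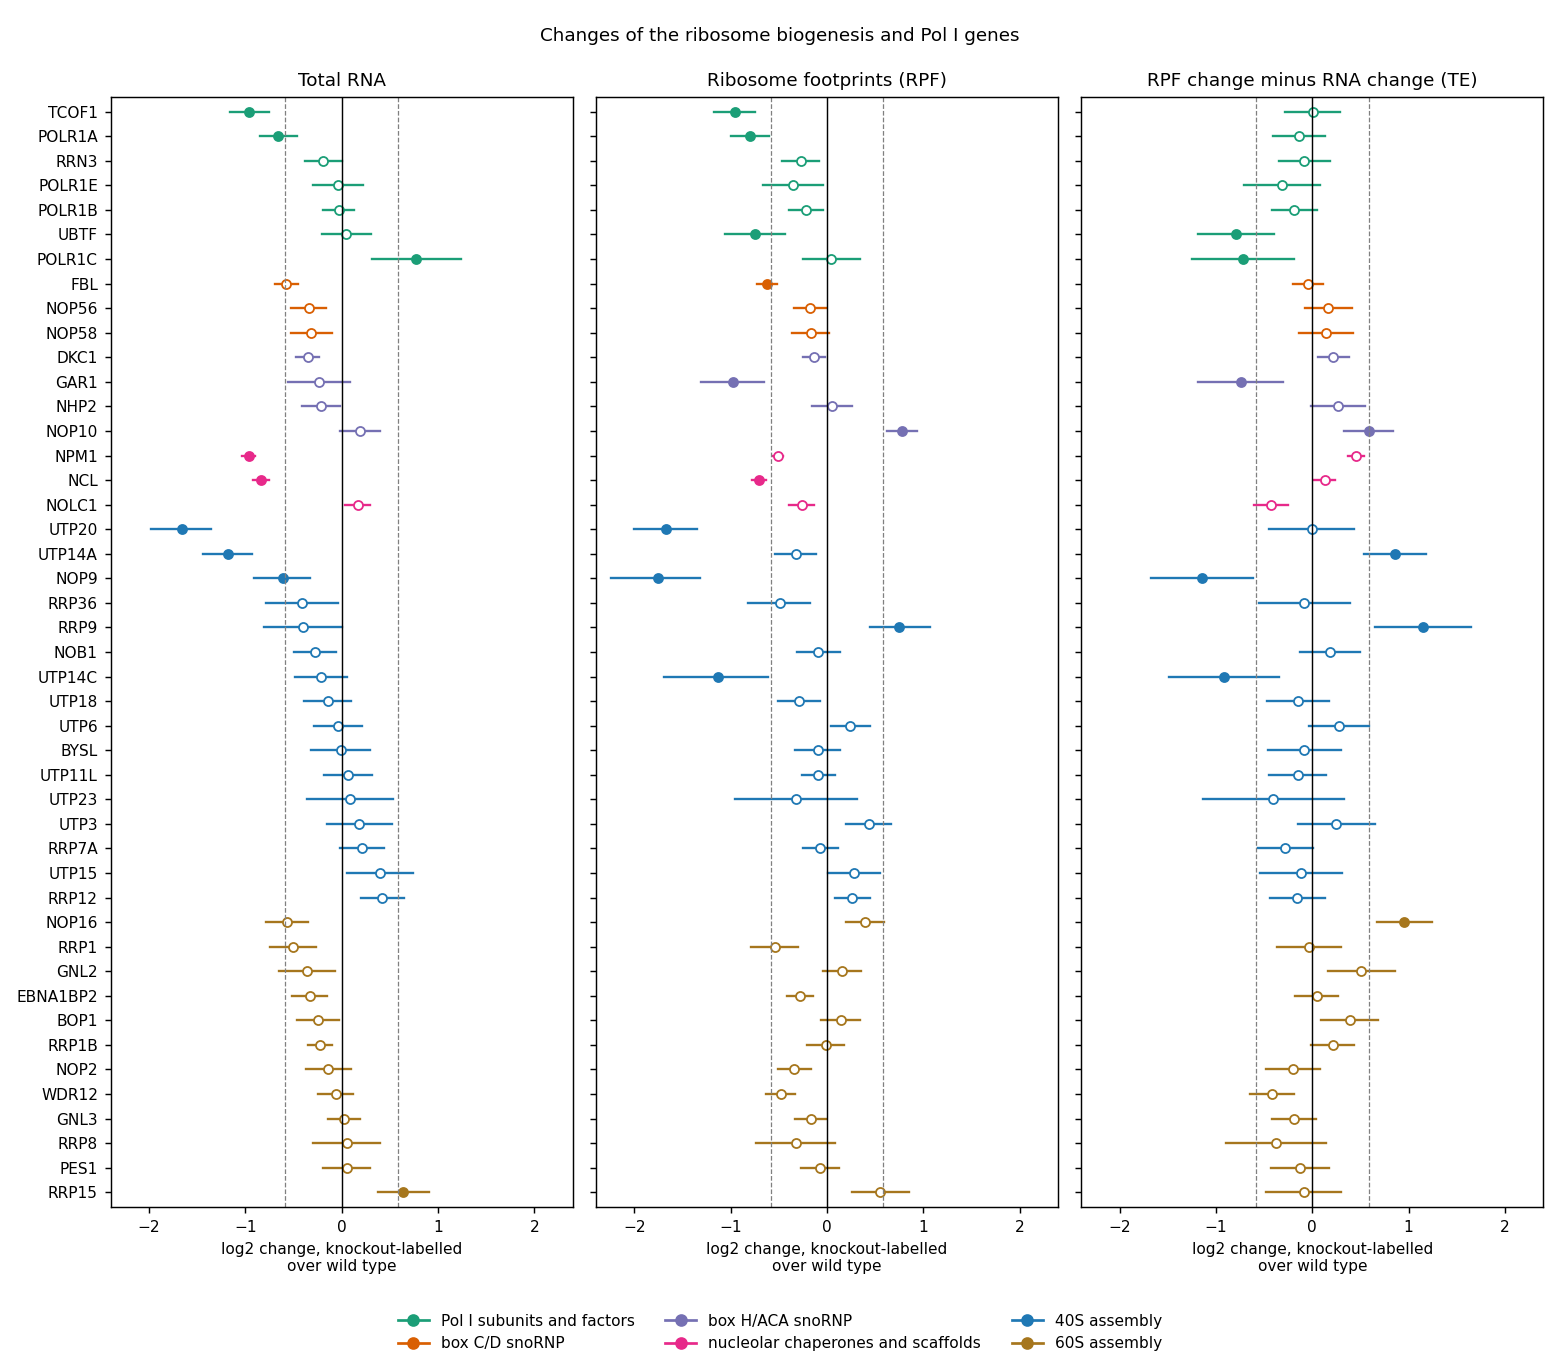
Log2 change of each of the 45 genes in total RNA, footprints and TE (knockout-labelled over wild type, 1 library each), with 95% counting intervals as lines and genes in rows by role. Filled points are called, open points are not, and dashed lines mark 1.5-fold. Most points lie left of 0 in RNA (31 of 45) and in RPF (33 of 45), and UTP20 and NOP9 reach −1.66 and −1.76.

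Summed, the 45 genes held 28117 and 18875 RNA reads, or 0.506% and 0.383% of all reads. In footprints they held 32361 and 25878 reads, or 0.855% and 0.685%. The summed change was −0.42 (−0.45 to −0.40) in RNA and −0.32 (−0.35 to −0.30) in RPF. Without NPM1 and NCL, which hold the most reads, the changes were −0.23 (−0.26 to −0.20) and −0.19 (−0.22 to −0.16).

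The start-site regions of these genes were inspected for what the symbol rule did not use. RefSeq promoters of GRCh38.p14, 250 bases before to 50 bases from the start site, were found for 37 members. They were not found for RRP12, UTP23, BOP1, RRP1B, POLR1E, TCOF1, NOP58 and NOLC1. The E-box CACGTG, a palindrome bound by basic helix-loop-helix factors, occurred in 11 of 37 (29.7%). It occurred in 10.2% of 8309 promoters of genes measured in RNA and in 5.80% of 69 promoters of cytosolic ribosomal proteins. In 7 members an E-box lay between 50 bases before and 20 bases after the start site. Shown here are 4 of these, the member lowest in RNA and 3 whose footprints per RNA read were higher in the knockout-labelled cells (NOP10, RRP9) or whose TE interval lay above 0 (GNL2), with the E-box in capitals and 50 bases before the start site:
UTP20 (chr12:101280055-101280124, plus strand): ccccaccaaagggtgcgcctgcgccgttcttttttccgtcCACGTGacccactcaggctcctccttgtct
NOP10 (chr15:34343117-34343186, minus strand): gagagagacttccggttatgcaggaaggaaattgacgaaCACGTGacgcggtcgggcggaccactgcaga
RRP9 (chr3:51941885-51941954, minus strand): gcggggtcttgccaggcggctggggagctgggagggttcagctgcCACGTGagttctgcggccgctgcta
GNL2 (chr1:37595918-37595987, minus strand): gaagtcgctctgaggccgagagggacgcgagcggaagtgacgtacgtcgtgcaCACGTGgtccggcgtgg
These 4 were chosen by their changes, so the mix of directions among them follows from the choice. UTP20 was called lower in both measurements, NOP10 and RRP9 were called higher in RPF, and GNL2 was not called. Left out of this display are FBL, called lower in RPF, and PES1 and UTP18, which were not called. The median RNA change was −0.33 over the 11 members with an E-box and −0.20 over the 26 without, and 3 of 10 members called lower in RNA or RPF held one (30.0%), beside 8 of the other 27 (29.6%). The ETS letters CCGGAAG, searched on both strands, were in 13 of 37 members (35.1%), 20.7% of measured genes and 33.3% of ribosomal protein genes.

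A second feature was sought at the start site itself, since most ribosomal protein genes carry it. An unbroken run of at least 5 C or T that opens with C at the start site, the shape of a 5′ terminal oligopyrimidine tract, was found in 4 of 37 members (10.8%), in 5.55% of measured genes and in 46 of 69 ribosomal protein genes (66.7%). The members were NPM1, FBL, NOB1 and UTP14A. It was in 3 of the 10 called lower in RNA or RPF (30.0%) and in 1 of the other 27 (3.70%), a difference that rests on 4 genes and was not tested. NPM1 and FBL, both abundant, are shown from 20 bases before the start site with the run in capitals:
NPM1 (chr5:171387829-171387868, plus strand): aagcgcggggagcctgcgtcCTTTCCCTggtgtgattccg
FBL (chr19:39846360-39846399, minus strand): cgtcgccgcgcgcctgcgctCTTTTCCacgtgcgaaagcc
The run of FBL ends in the first letter of an E-box that starts at base 7 counted from the RefSeq start site. The deposited transcript starts 35 bases from that site for FBL and 201 bases from it for NPM1. A match in such a window is a description and does not show that a factor binds there.

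Pol I subunit genes did not share a direction. The core subunit gene POLR1A, which encodes the largest subunit and its active site, had 612 and 349 RNA reads and 571 and 329 footprints. Both kinds were lower, by 1.58-fold in RNA (log2 −0.66, −0.85 to −0.47) and 1.74-fold in RPF. The second-largest subunit gene POLR1B had 704 and 620 RNA reads and 561 and 483 footprints, with changes of −0.03 (−0.19 to 0.13) and −0.22 (−0.40 to −0.04), and was not called. POLR1C, a subunit that Pol I shares with RNA polymerase III, had 67 and 103 RNA reads, 1.70-fold higher (0.77, 0.31 to 1.24). Its footprints were 184 and 190, a change of 0.05 (−0.25 to 0.35), so its TE change was −0.72 (−1.25 to −0.19). The large core subunit was thus lower in both kinds of library, while the shared subunit was higher in RNA with level footprints. POLR1E had 263 and 231 RNA reads and 203 and 159 footprints and was not called.

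Genes of factors that bring Pol I to ribosomal DNA included 2 of the 3 RPF calls. TCOF1 encodes treacle, a nucleolar phosphoprotein that works with UBTF in ribosomal DNA transcription. It had 648 and 300 RNA reads and 549 and 283 footprints, 1.94-fold lower in both (log2 −0.96 each), with a TE change of 0.00 (−0.28 to 0.29). UBTF, the HMG-box factor that keeps ribosomal DNA open, had 271 and 252 RNA reads, a change of 0.05 (−0.21 to 0.30). Its footprints went from 233 to 139, 1.67-fold lower (−0.74, −1.06 to −0.44). UBTF was therefore called in RPF and in TE (−0.79, −1.18 to −0.40) but not in RNA, whereas TCOF1 RNA and footprints were lower by the same factor. The initiation factor gene RRN3 had 505 and 398 RNA reads and 520 and 430 footprints, with changes of −0.19 and −0.27, and was not called. Of the 7 Pol I genes, 5 lay below 0 in RNA (71.4%, all genes 50.7%) and 6 in RPF (85.7%, all genes 50.3%). In RPF 3 were called lower (42.9%, all genes 20.1%), which is a count of few genes.

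The genes of nucleophosmin and nucleolin, the abundant nucleolar proteins, were called lower in RNA. NPM1, a nucleolar chaperone that forms pentamers and carries ribosomal particles, had 5940 and 2739 RNA reads. This was 1.95-fold lower (−0.97, −1.03 to −0.90), the narrowest RNA interval of any member. Its footprints were 7946 and 5581, 1.42-fold lower (−0.51, −0.56 to −0.46), which is below the fold needed for a call, and its TE change was 0.46 (0.37 to 0.54). NCL, the nucleolin gene, whose product binds nascent ribosomal RNA, had 3434 and 1727 RNA reads and 4122 and 2521 footprints, 1.79-fold lower in RNA and 1.64-fold lower in RPF. NOLC1, a scaffold that shuttles between nucleolus and Cajal bodies, went the other way in RNA, with 976 and 986 reads (0.17, 0.04 to 0.30), and had 1097 and 915 footprints (−0.26). The median RNA change of measured genes within 2.5 Mb was 0.37 for NPM1 (15 genes) and 0.15 for NCL (23 genes). For other members called lower in RNA it was −0.25 for UTP14A, 0.03 for UTP20, 0.23 for TCOF1, 0.18 for NOP9 and 0.155 for POLR1A. For the 2 called higher it was 0.28 (RRP15) and 0.12 (POLR1C). It lay below 0 for 27 of 45 members. The part of chromosomal neighbourhood in these changes was not tested. Many NPM1 pseudogenes exist: 54.8% of the 28-base words of its transcript also occur in transcripts of 54 other annotated genes. How reads with several matches were counted is not given in the sources used here, so the NPM1 counts are uncertain in that respect. For NCL the shared part was 4.62%. Over 10% was shared for 12 of the 45 members, among them RRP7A (37.4%), RRN3 (32.6%), NOB1 (26.6%) and NHP2 (23.0%). Their counts are uncertain in the same respect.

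**Figure D2:**
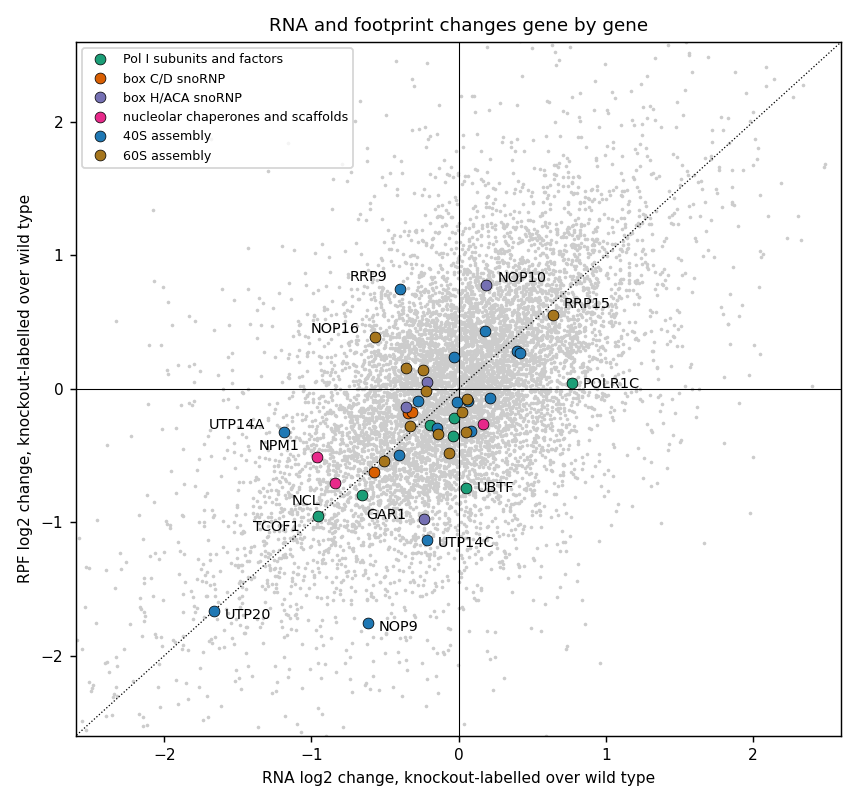
RNA change (x axis) against RPF change (y axis), both log2 of knockout-labelled over wild type, for 45 members coloured by role over the 9598 genes measured in both (grey, cropped at 2.6 each way). The dotted line marks equal change: UTP20, TCOF1 and NCL lie near it, NOP9, UTP14C, GAR1 and UBTF below it, and RRP9, NOP16 and UTP14A above it.

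The 3 box C/D protein genes all lay below 0 in RNA (all genes 50.7%) and in RPF (all genes 50.3%). FBL was the 1 called, lower in RPF (33.3%, all genes 20.1%), which is a count of few genes. FBL, the methyltransferase fibrillarin, had 1591 and 961 RNA reads and 2014 and 1309 footprints. Its RNA was 1.49-fold lower (−0.58, −0.69 to −0.46), just short of the call, and its footprints 1.54-fold lower (−0.62, −0.72 to −0.52). With DESeq2 size factors in place of TMM its RNA change is −0.59 and is called. The core proteins NOP56 and NOP58, which pair along the guide RNA, had 582 and 413 and 427 and 309 RNA reads. Their RNA changes were −0.34 (−0.53 to −0.16) and −0.31 (−0.53 to −0.10) and their RPF changes −0.18 and −0.17. All 3 intervals in RNA lay below 0.

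The 4 box H/ACA proteins, which form 1 particle, went apart in footprints. GAR1 had 192 and 147 RNA reads (−0.23, −0.55 to 0.08), and its footprints went from 240 to 122, 1.96-fold lower (−0.97, −1.30 to −0.66). NOP10, the smallest subunit, had 386 and 396 RNA reads (0.19, −0.02 to 0.39), and its footprints went from 535 to 916, 1.71-fold higher (0.77, 0.62 to 0.93). Neither was called in RNA, and their footprint intervals lay on opposite sides of 0. DKC1, the pseudouridine synthase dyskerin, had 1403 and 987 RNA reads and 1316 and 1198 footprints, with changes of −0.36 (−0.48 to −0.24) and −0.14 (−0.25 to −0.02). NHP2 had 475 and 368 RNA reads and 389 and 403 footprints, with changes of −0.22 and 0.05. Summed over the particle, RNA changed by −0.22 (−0.31 to −0.13) and RPF by 0.09 (0.01 to 0.17).

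Among the 16 genes of 40S assembly, 3 were called lower in RNA and 0 higher, and 3 were called lower and 1 higher in RPF. The share called lower was 18.8% in each kind, near the 17.8% and 20.1% of all genes. UTP20 (chromosome 12, 101280109 to 101386616, plus strand, GRCh38), a very large scaffold of the processome with 62 exons, was the lowest member in RNA. It had 405 and 115 RNA reads and 325 and 102 footprints, 3.16-fold lower (−1.66, −1.98 to −1.36) and 3.18-fold lower (−1.67, −2.01 to −1.35), with a TE change of −0.01. Its 13 measured neighbours within 2.5 Mb had a median RNA change of 0.03. NOP9 (chromosome 14, 24299862 to 24309124, plus strand), a Pumilio-type protein that binds the 18S precursor, had 264 and 155 RNA reads, 1.53-fold lower (−0.62, −0.91 to −0.33). Its footprints went from 177 to 52, 3.38-fold lower (−1.76, −2.24 to −1.31), the lowest RPF change of any member, and its TE change was −1.14 (−1.67 to −0.61). UTP20 was thus lower by the same factor in both kinds of library, whereas NOP9 was lower by more in footprints than in RNA.

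The processome genes UTP14A and UTP14C share sequence. UTP14A, on chromosome X, had 458 and 181 RNA reads, 2.27-fold lower (−1.19, −1.44 to −0.94), against 424 and 338 footprints (−0.33, −0.54 to −0.12), so its TE change was 0.86 (0.54 to 1.18). UTP14C, a retrotransposed copy on chromosome 13, had 272 and 211 RNA reads (−0.21, −0.48 to 0.05), and its footprints went from 97 to 44, 2.19-fold lower (−1.13, −1.69 to −0.61). The 2 genes went opposite ways in TE. Of the 28-base words of UTP14C, 74.0% also occur in transcripts of ALG11, the gene it overlaps, and 24.4% of those of UTP14A do. The split of reads among these 3 genes is therefore uncertain. RRP9, the U3 snoRNP protein, had 129 and 88 RNA reads (−0.40, −0.81 to 0.00) and 137 and 231 footprints, 1.68-fold higher (0.75, 0.44 to 1.07). It was the highest member in TE, at 1.15 (0.65 to 1.64).

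Other 40S genes were not called. RRP12, an export factor, had 305 and 367 RNA reads and 446 and 536 footprints, with both intervals above 0 (0.20 to 0.64 and 0.08 to 0.45). UTP15 had changes of 0.40 and 0.28, and UTP3 of 0.18 and 0.43. RRP36 lay below 0 in both, with 155 and 105 RNA reads and 200 and 142 footprints (−0.41 and −0.49). NOB1, the endonuclease that makes the 3′ end of 18S ribosomal RNA, had 415 and 309 RNA reads and 335 and 315 footprints (−0.27 and −0.09). UTP18 had changes of −0.15 and −0.29, UTP6 of −0.03 and 0.24 and RRP7A of 0.21 and −0.07. BYSL and UTP11L stayed within 0.10 of 0 in both. UTP23 had the fewest reads of the 40S genes, 88 and 84 in RNA and 50 and 40 in RPF, and its RPF interval was wide (−0.96 to 0.31).

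Of the 12 genes of 60S assembly, 0 were called in RPF (all genes 20.1% lower and 19.0% higher). In RNA 1 was called higher (8.33%, all genes 16.2%) and 0 lower (all genes 17.8%). The RNA of RRP15, an early 60S factor with 203 and 285 reads, was 1.56-fold higher (0.64, 0.38 to 0.91). Its footprints, 161 and 236, had a change of 0.55 (0.26 to 0.85), short of the call. NOP16 had 459 and 279 RNA reads, 1.48-fold lower (−0.57, −0.79 to −0.35), and 384 and 504 footprints, 1.31-fold higher (0.39, 0.20 to 0.59). Its RNA and RPF intervals lay on opposite sides of 0, and its TE change was 0.96 (0.67 to 1.24). The PES1, BOP1 and WDR12 complex had little RNA change: PES1 had 290 and 271 reads (0.05), BOP1 399 and 303 (−0.25, −0.47 to −0.03) and WDR12 548 and 472 (−0.06). In footprints WDR12 went from 904 to 647 (−0.48, −0.63 to −0.34), while PES1 had 446 and 424 (−0.07) and BOP1 386 and 426 (0.14). RRP1 lay below 0 in both kinds of library, with 376 and 238 RNA reads and 347 and 238 footprints (−0.51 and −0.54), and its neighbour and paralog RRP1B had 1289 and 993 RNA reads and 440 and 436 footprints (−0.23 and −0.01). The nucleolar GTPase genes GNL2 and GNL3 had RNA changes of −0.36 and 0.02 and RPF changes of 0.15 and −0.17. EBNA1BP2 lay below 0 in both (−0.33 and −0.28). The methyltransferase gene NOP2 had −0.14 and −0.34, and RRP8, a nucleolar methyltransferase-like protein, 0.05 and −0.32. NOP2 shares 97.7% of its 28-base words with transcripts of an overlapping annotated gene.

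In TE, 4 members were called higher (8.89%, background 15.7%) and 5 lower (11.1%, background 13.9%). The higher ones were RRP9, NOP16, UTP14A and NOP10, and the lower ones NOP9, UTP14C, UBTF, GAR1 and POLR1C. UTP14A was the 1 member lower in RNA and higher in TE (background 5.19%). At 2-fold 1 was higher, RRP9, and 1 lower, NOP9 (background 6.46% and 6.28%). The median TE change was −0.08 beside 0.03 over 9598 genes, and 27 of 45 members lay below 0 (background 47.9%). The 4 that were higher have annotated 3′ untranslated regions of 76 (RRP9), 285 (NOP16), 144 (UTP14A) and 255 bases (NOP10). Among those that were lower, NOP9, UTP14C and UBTF have 4029, 2495 and 2209 bases and GAR1 and POLR1C 309 and 226. Across the 45 members Spearman's rho of this length and the TE change was −0.44, and −0.11 across all genes. These are descriptions over genes of the same 4 libraries. RNA and RPF changes had a Pearson r of 0.58 across the members and 0.63 across all genes.

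Wild-type levels placed these genes among the well expressed. Per kilobase of transcript, their median level in wild-type RNA was 24.2 CPM, beside 11.0 CPM over 10872 genes, and 35 of 45 were above the latter. NPM1 was highest at 609 CPM per kilobase, followed by FBL at 247, NCL at 153 and NOP10 at 126. NHP2 and DKC1 had 98.9 and 98.1, from 475 and 1403 reads, and their order is not resolved by counting. RRP8, UTP23 and RRP15 were lowest by this measure, at 4.01, 4.29 and 4.71. Their annotated 3′ untranslated regions have 5071, 2848 and 6892 bases, which enter the length. Which region was counted is not given, so this order may not hold per kilobase of coding sequence. In the knockout-labelled library NPM1 had 316 and NCL 86.8, so NCL then stood below NOP10 (145) and close to NHP2 (86.3).

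Footprints per RNA read lay above those of the median gene for most of these genes. The log2 ratio of RPF to RNA CPM, set against the median gene, was above 0 for 41 of 45 members in wild type, with a median of 0.61, and for 35 in the knockout-labelled cells, with a median of 0.70. POLR1C was highest in wild type (1.89), followed by UTP11L (1.45), NOP2 (1.36) and UTP3 (1.33). RRP1B (−1.11), UTP14C (−1.04), UTP23 (−0.37) and NOP9 (−0.14) were the 4 below the median gene. In the knockout-labelled cells the highest was GNL2 (1.70), then RRP9 (1.64) and UTP3 (1.54). Spearman's rho between the genotypes across members was 0.80, over points that share depth and transcript features within a gene. The members have shorter annotated 3′ untranslated regions than other genes, with a median of 493 bases beside 941. Across all genes this length went with fewer footprints per RNA read (rho −0.45, and −0.35 across the members). The ratio has no correction for length, and which region was counted is not given, so it is not a measure of translation alone. The part of 3′ untranslated length in the high ratio was not tested.

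**Figure D3:**
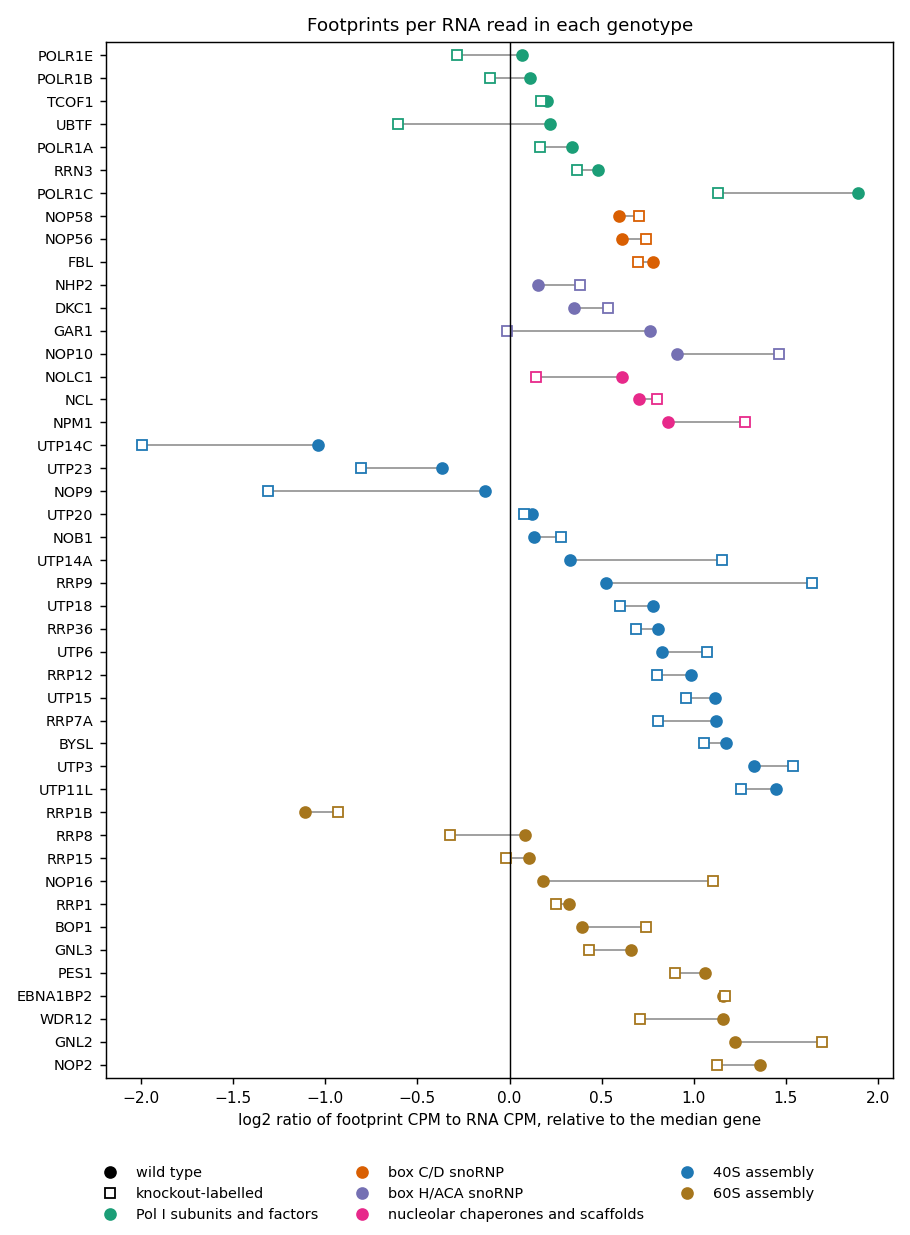
Log2 ratio of footprint CPM to RNA CPM for each of the 45 genes, relative to the median gene of the same genotype, in wild type (filled circles) and in knockout-labelled cells (open squares), 1 library of each kind. Circles lie right of 0 for 41 genes, and the longest moves are those of NOP9 and UTP14C to the left and of RRP9 and NOP16 to the right.

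Other genes of the pathway were counted from lists that do not overlap the members. Over all genes, 17.8% were called lower and 16.2% higher in RNA, and 20.1% and 19.0% in RPF. Among 52 further 40S assembly factors 6 were called lower (11.5%) and 3 higher (5.77%) in RNA (median −0.07), and 8 lower (15.4%) and 4 higher (7.69%) in RPF (median 0.0019), all 4 shares below those of all genes. IMP3, a U3 snoRNP protein, had 238 and 96 RNA reads against 103 and 111 footprints, and TSR3 had 205 and 220 RNA reads against 128 and 57 footprints. Among 53 further 60S factors 12 were lower (22.6%) and 4 higher (7.55%) in RNA (median −0.11). In RPF 6 of the 52 measured were lower (11.5%) and 3 higher (5.77%). BRIX1 had 165 and 43 RNA reads and 277 and 103 footprints, while SBDS, which acts late in 60S maturation, had 709 and 1283 RNA reads and 794 and 1439 footprints. Of 27 exosome and pre-rRNA nuclease genes, 6 were lower (22.2%) and 1 higher (3.70%) in RNA and 4 lower (14.8%) and 7 higher (25.9%) in RPF. A mixed list of snoRNP assembly and box H/ACA telomerase factors had 2 of 13 lower in RNA (15.4%) and 0 higher. In RPF 4 of 13 were lower (30.8%) and 0 higher. Those lower in RPF include AAAS, a nuclear pore gene that is no assembly factor. NAF1, an H/ACA assembly factor, had 116 and 112 RNA reads and 163 and 82 footprints.

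A list of 19 further genes tied to Pol I mixes its own and shared subunits with other factors such as TBP, BAZ2A and SIRT7. It had 9 called higher (47.4%, all genes 19.0%) and 3 lower (15.8%, all genes 20.1%) in RPF (median 0.50). In RNA 1 was higher (5.26%, all genes 16.2%) and 3 lower (15.8%, all genes 17.8%), with a median of 0.17. POLR2K, a shared small subunit, had 291 and 298 RNA reads and 245 and 630 footprints. POLR2L, another, had 859 and 213 RNA reads and 2011 and 736 footprints. Of 11 subunits specific to RNA polymerase III, 1 was higher and 1 lower in each of RNA and RPF, and of 5 specific to RNA polymerase II none was called in RNA and 1 was higher in RPF.

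Ribosomal proteins, which the nucleolus joins to ribosomal RNA, are given beside the assembly genes; the difference was not tested. Cytosolic ribosomal protein genes had 41 of 86 called higher (47.7%, all genes 19.0%) and 1 lower (1.16%, all genes 20.1%) in RPF, with a median of 0.55. The biogenesis genes had 2 of 45 higher (4.44%) and a median of −0.22 in RPF. In RNA the ribosomal protein list had 3 higher (3.49%, all genes 16.2%) and 3 lower (3.49%, all genes 17.8%) with a median of −0.01. Its footprint reads went from 5.53% to 8.21% of the library. This list, made by symbol, takes in paralogs such as RPL22L1 and RPL7L1, both called higher in RNA. RPL7L1 is also counted among the further 60S factors above. Proliferation genes are given here because growth and ribosome production are linked. In RNA 24 of 24 were called lower (all genes 17.8%), with a median of −1.32. In RPF 21 of 24 were called lower (87.5%, all genes 20.1%), with a median of −1.16. Among the 45 members, UTP20 at −1.66 was the 1 beyond the median of the proliferation list in RNA. Of the 45, 31 were on the same side of 0 (68.9%, all genes 50.7%). The part of growth state in the members' changes was not tested.

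**Figure D4:**
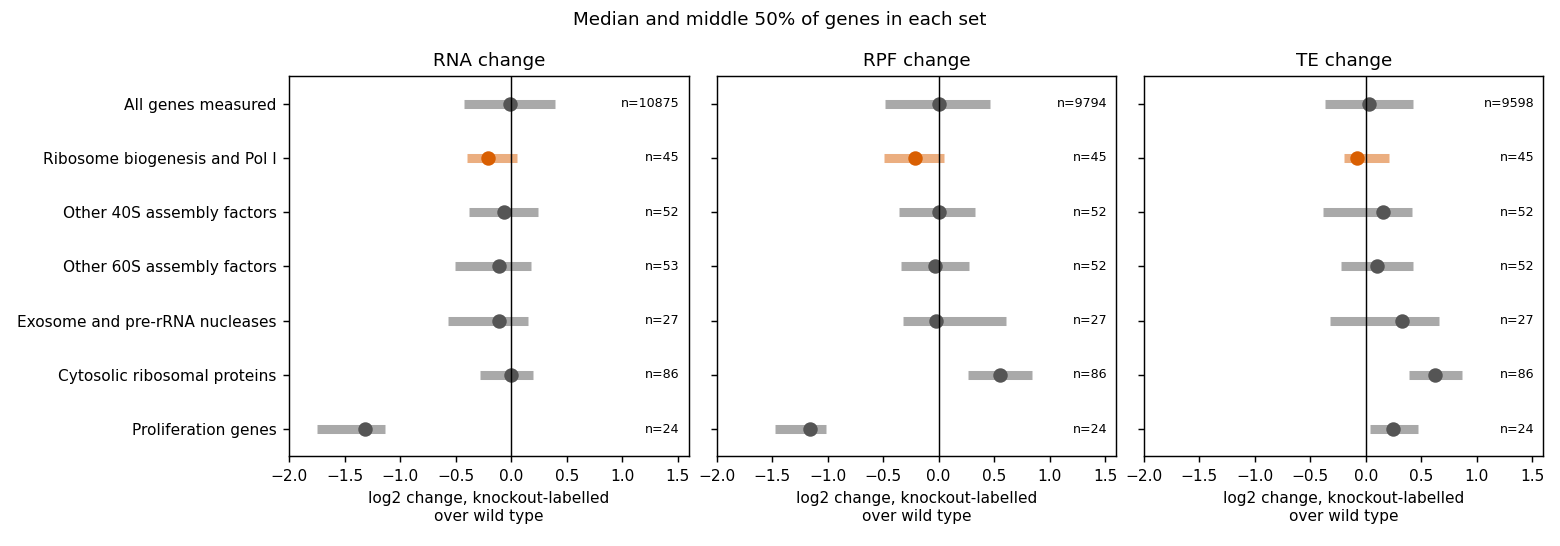
Median (point) and middle 50% of genes (bar) of the RNA, RPF and TE log2 changes for all genes measured, the 45 ribosome biogenesis and Pol I genes (orange) and 5 other gene sets, with the number of genes at the right. The orange medians lie at −0.21, −0.22 and −0.08, while ribosomal proteins lie at 0.55 in RPF and proliferation genes at −1.32 in RNA.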

How the data were processed

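Total RNA and nuclease footprints (RPF) of wild-type and IMP1-/- SW480 cells gave 4 libraries. The deposited files hold raw read counts for each gene symbol, made by the authors and not scaled, and every symbol carries a single Ensembl transcript. Tools named in the submitters' processing notes are cutadapt (1.10), Bowtie (1.1.2) and HISAT2 (2.1.0), with build GRCh38. What each tool did, which region was counted, whether random identifiers were collapsed and how multiply matching reads were treated is not given in the sources used here.

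Scaling was by TMM (edgeR 4.0.16, R 4.3.3), with knockout-labelled to wild-type factor ratios of 0.900 in RNA and 1.00 in RPF, and a prior count of 0.5. RNA and RPF intervals are exact conditional (Clopper-Pearson) and TE intervals use summed reciprocal counts. They hold no spread between cultures, since each group is 1 library. Reads after PCR are not independent molecules, so the intervals may be too narrow even for counting error. The code (SciPy 1.17.1, pandas 2.3.3) was tested on counts simulated with sampling noise alone, which says nothing of the spread between cultures. Lengths and gene coordinates are from GENCODE 29, where all 45 transcripts were found, and promoters from RefSeq.

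Members and gene lists were chosen with earlier results of these data known. Members called in RNA, RPF or TE and 15 core genes are given with reads in all libraries. Other genes come from the top 3 of each list and direction, ranked by the interval bound nearest to no change. Alternatives were other scalings (total counts, DESeq2 1.42.0 size factors, TMM without MTRNR2L genes and PLCG2), minimums, folds and prior counts, and a wider interval.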

Additional observations from a re-analysis of the deposited data

How the results depend on the processing

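The medians of the 45 genes in RNA, RPF and TE kept their sign under every scaling, minimum and prior count tried, from −0.23 to −0.19 in RNA, −0.22 to −0.18 in RPF and −0.10 to −0.06 in TE. The number of genes called moved by more than 1.5 times where the call rule itself was changed. From 9 in RNA, 11 in RPF and 9 in TE, it became 2, 3 and 2 with a 2-fold call, and 25, 32 and 16 with any fold whose interval leaves out no change. With an assumed extra coefficient of variation of 0.2 in each library, which stands in for the replicate spread that these data lack, it became 5, 5 and 0. UTP20, UTP14A, TCOF1, NPM1 and NCL were the 5 that remained in RNA and UTP20, NOP9, UTP14C, TCOF1 and GAR1 the 5 in RPF, all lower, and no TE call remained. Over all genes the 2-fold shares were 8.35% lower and 6.39% higher in RNA, 9.87% and 9.00% in RPF, and 6.28% and 6.46% in TE. The share of all genes called was not counted for the any-fold rule or for the extra variation, so those member counts have no background. NOP10 was no longer called in TE with total-count scaling or a prior count of 2. No named gene changed sign where it was called. The median level per kilobase in wild-type RNA became 37.2 CPM with coding length in place of transcript length, beside 24.0 CPM over all genes. The order of single genes was not repeated with coding length. No paired analysis was possible because each group has 1 library, and for the same reason no library could be left out. Depth limits UTP23 most in RPF, with 50 and 40 reads, and POLR1C in RNA, with 67 and 103.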
